A study of Mus musculus with 18 samples.

Results

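The loci described here are 295 predicted miRNA hairpins measured in mouse sperm, out of 6919 predicted loci with reads and 7299 predicted positions. The members were selected on their levels in these libraries: a locus was included where it reached 1 TPM (reads per 1,000,000 reads of its library, with no length term) or more in at least 3 of 18 libraries. Loci named novel_mir1 to novel_mir5, which lie in tRNA genes, were left out. Those levels are therefore given as a description. The label of the set, hairpins outside tRNA genes, did not hold for its leading member: novel_mir6624 has all 18 bases of its mature sequence inside the tRNA-Trp gene n-TWcca6.

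The libraries came from sperm of ICR mice, an outbred strain, in 6 groups of 3, a Con and an NHS group for each of 3 generations. The exposure fell on the F0 NHS males alone, which received ammonia (NH3) and hydrogen sulphide (H2S) over 5 weeks, beginning at an age of 3 weeks, before mating with normal females. The series text also words this exposure as NH3 and/or H2S, and the labels do not spell out NHS, so whether each male received both gases is not settled here. Their F1 offspring were left untreated and mated at 8 weeks, and the F2 males were untreated as well. The Con groups carry that label without further description, and the sources used here do not say how animals were assigned to replicates, so each p-value rests on library-to-library spread that may be technical. Library totals ranged from 17,224,478 to 29,430,555 reads, so 1 TPM rested on 17.2 to 29.4 reads.

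A miRNA is cut from a hairpin: Drosha releases the hairpin from a longer transcript, Dicer removes its loop, and one arm enters an Argonaute protein. The arm finds its target RNAs mainly through its seed, bases 2 to 8, so the 5′ end of a true miRNA is usually fixed to the base. Prediction tools look for reads stacked on one arm of a possible hairpin, and fragments of tRNA, rRNA, snoRNA and other structured RNAs can pass such a search. Mature sperm is known for a small RNA pool rich in tRNA and rRNA fragments, next to miRNAs and piRNAs.

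The mature sequences of the 10 members with the highest mean level are shown first because together they held 81.3% of all member reads. Capitals mark the seed.
novel_mir6624: gCCUCGUGgcgcaacggu
novel_mir6543: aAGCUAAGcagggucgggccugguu
novel_mir5152: gGGGCGGGgacgggcggug
novel_mir6371: gGGGAUGUagcucagugg
novel_mir6794: cAGGGUGGgcgggucauggg
novel_mir6: aGGAGGUGucagaaaaguu
novel_mir517: gAGGAGGAggaggaggaggaggagg
novel_mir4494: gAGGAGGAggaggaggaggaggagg
novel_mir2631: aGCUUUGCgcaguggcagu
novel_mir996: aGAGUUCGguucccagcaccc

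The next set holds the members that passed the test between NHS and Con in F0, besides novel_mir6 above, again with the seed in capitals.
novel_mir4212: gGGCGGGCggggccgggggu
novel_mir5550: aCGGUCUGggaaaaggcuccu
novel_mir4375: gGCGGCGCggggcggggg

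Whole predicted hairpins show how the mature arm sits in each precursor. They are the leading member and the called members outside UTRs that are described most fully below, with the mature arm in capitals, 5′ to 3′ on the strand of the locus (mm10).
novel_mir6624, chr11:69063548-69063587, minus strand: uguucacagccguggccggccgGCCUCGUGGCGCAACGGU
novel_mir6, chr13:44749631-44749711, minus strand: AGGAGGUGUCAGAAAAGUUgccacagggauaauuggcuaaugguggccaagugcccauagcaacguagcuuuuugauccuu
novel_mir5550, chr11:117077243-117077326, plus strand: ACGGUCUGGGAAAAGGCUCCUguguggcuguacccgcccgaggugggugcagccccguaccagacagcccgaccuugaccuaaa

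In form the members were closer to the other predicted loci than to known miRNAs. The mature sequence was 20 to 24 bases long in 59.0% of members, in 54.8% of all predicted loci and in 94.5% of the known mouse miRNAs of RefSeq (GRCm38.p6). A U at the first base, the base that Argonaute proteins commonly favour, stood in 18.6% of members, 20% of all predicted loci and 40.9% of known miRNAs. G made up a median of 56.5% of the mature bases of members, against 50% over all predicted loci and 26.9% in known miRNAs. A run of GGGG was present in 46.8% of member mature sequences, in 40.3% of all predicted ones and in 11.2% of known ones.

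**Figure D1:**
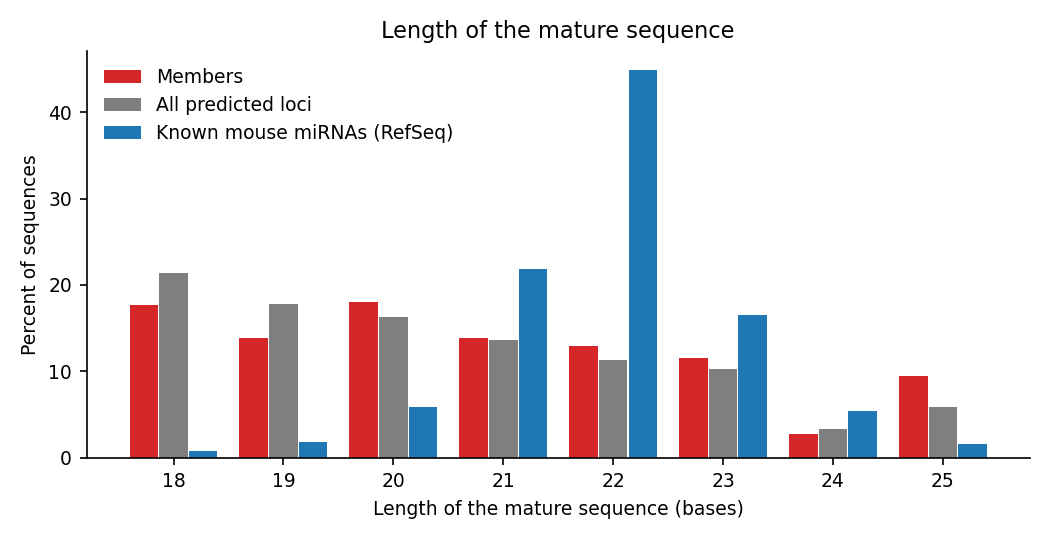
Length of the mature sequence in bases (x) and percent of sequences (y) for the members, all 7299 predicted loci and the known mouse miRNAs of RefSeq. Known miRNAs peak at 22 bases with 44.9%, while members spread over 18 to 25 bases, with 17.6% at 18 bases and 9.49% at 25.

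The folds were less different. A single hairpin loop was predicted by RNAfold for 94.6% of member precursors, 95.0% of all predicted precursors and 94.5% of known hairpins. The median folding energy was -41.9 kcal/mol per 100 bases in members, -39.0 over all predicted loci and -40.6 in known hairpins. The members were GC-rich, at a median GC content of 64.2% against 51.7% in known hairpins.

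No exact match to a known miRNA sequence of RefSeq was found. Of 295 mature sequences, 0 lay inside a known hairpin and 0 were identical to a known mature sequence. By gene annotation, however, novel_mir2102 lies in Mir3096, a snoRNA gene with a miRNA name. Likewise novel_mir1586 lies in the overlapping genes Gm24888 and Gm47284, annotated as miRNA and snoRNA. The seed was shared with a known mouse miRNA in 39.7% of members and in 49.7% of all predicted loci. Among members of 20 to 24 bases, the most abundant with such a seed were novel_mir996 (seed of miR-1195), novel_mir897 (miR-6998-5p), novel_mir7 (miR-6931-5p), novel_mir90 (miR-5126), novel_mir1092 (miR-92a-2-5p) and novel_mir1831 (miR-149-3p and 3 others). Their mean levels ran from 12.6 TPM for novel_mir1831 to 52.6 TPM for novel_mir996. Of these 6, 0 passed the test in F0, F1 or F2.

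The members had 224 different seeds, and 109 members shared a seed with another member. At least 5 members shared each of 5 seeds, which together covered 27 members. The seeds GGGGCCG (6 members) and also GGGGCGG (6 members) were the most frequent. Seeds made only of G and C stood in 14.2% of members and 7.28% of all predicted loci. The seed AGGAGGA was shared by 3 members, novel_mir517, novel_mir4494 and novel_mir3122. Its summed level lay between 24.3 TPM and 609 TPM, the latter in F2 NHS replicate 2.

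The annotation (GENCODE M21, at least 50% of the precursor) placed 99 members in exons of other genes, 78 between genes, 56 in introns, 27 opposite an intron, 17 opposite an exon, 17 in genes of small structured RNAs and 1 on a sequence with no annotation. Of the exonic members 46 lay in UTRs, 30 in coding sequence and 2 across both. Small RNA genes held 5.76% of members and 0.257% of the listed loci that were not members. Between genes lay 26.4% of members and 14.6% of the others, and in introns 19% and 30.3%. Members had to reach a level, so these shares describe what the more abundant predicted loci are, and they were not tested.

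Among members, 24 overlapped another predicted locus on the same strand, and all 24 overlaps had the same mature sequence under both names, so such loci share the same source. Both names were members in 2 pairs. One pair is novel_mir5870, named for an intron of Iars, the isoleucyl-tRNA synthetase gene, and novel_mir2042, named for the snoRNA gene Gm25394, which place the same mature sequence at chr13:49684300-49684320. In F2 Con novel_mir5870 was listed at 0 TPM in all 3 libraries while novel_mir2042 stood at 2.38, 0.664 and 0.115 TPM. In F2 NHS novel_mir5870 stood at 0, 0.805 and 1.35 TPM and novel_mir2042 at 1.89, 0.0402 and 0.0384 TPM. Summed over both names the level was 2.38, 0.664 and 0.115 TPM in F2 Con and 1.89, 0.845 and 1.38 TPM in F2 NHS, and the groups overlapped.

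The members took from 0.139% to 3.71% of all reads, with a median of 0.334%. Only 33 members reached 1 TPM in all 18 libraries, 124 reached it in 3 to 5 libraries, and 2 reached it in libraries of a single group. The median of the members' mean levels was 1.09 TPM, 248 stayed under a mean of 5 TPM and 32 reached 10 TPM. At the threshold itself, novel_mir355 and novel_mir1600 had third-highest levels of 1 TPM, while novel_mir1278 and novel_mir2544, just outside, had 0.99 TPM.

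**Figure D2:**
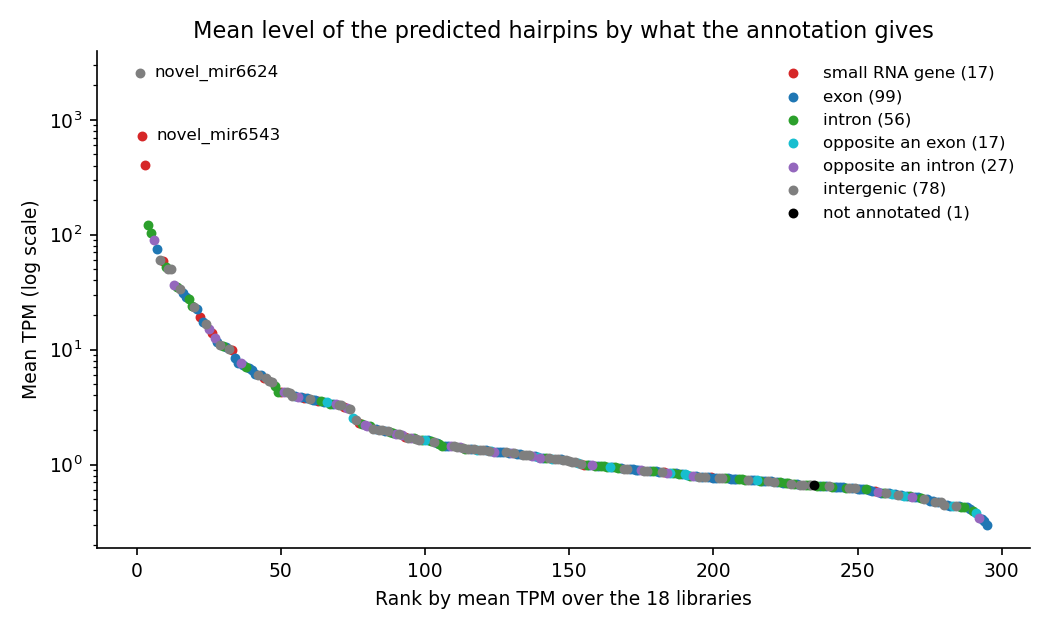
Mean TPM over 18 libraries (y, log scale) against rank (x) for the 295 members, coloured by the annotation of the precursor. novel_mir6624, counted between genes because less than 50% of its precursor lies in the tRNA gene, and the rRNA gene member novel_mir6543 stand above all others, and most members lie near 1 TPM.

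Reads were unevenly spread over libraries as well. F1 NHS replicate 1 held the highest TPM for 67 members, F2 NHS replicate 2 for 48 and F1 Con replicate 2 for 45, while F1 NHS replicate 2 did so for 1. These 3 leading libraries had TMM factors (the scaling that edgeR derives from the bulk of the loci) of 2.05, 1.56 and 1.82, among a range of 0.479 to 2.05. The 4 tRNA gene loci with reads also set libraries apart: they summed to 2916 TPM or more in 6 libraries and to 1053 TPM or less in the other 12. The 6 are F0 Con replicate 2, F0 NHS replicate 3, F1 NHS replicate 2, F2 Con replicates 1 and 2 and F2 NHS replicate 1.

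novel_mir6624 was the most abundant member, with 47.1% of all member reads. It lies at chr11:69063548-69063587 on the minus strand, and 19 bases of its precursor overlap n-TWcca6, a gene for the tRNA that carries tryptophan. Its precursor shares a run of 17 bases with that of novel_mir4, which lies in the tRNA-Trp gene n-TWcca2. In F0 Con it stood at 1237, 35,202 and 844 TPM, in F0 NHS at 1680, 170 and 366 TPM. In F1 Con it stood at 99.3, 1567 and 414 TPM, and in F1 NHS at 356, 185 and 336 TPM. In F2 it stood at 532, 972 and 14.3 TPM in Con and at 580, 1001 and 93.0 TPM in NHS. Con and NHS overlapped in all 3 generations, and 77.1% of its summed level came from F0 Con replicate 2 alone. The log2 fold change in F0 was -5.20 (SE 1.84, edgeR adjusted p = 0.406).

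The summed level of all members followed this locus. It was 14,361 ± 19,652 TPM in F0 Con and 2637 ± 1054 TPM in F0 NHS (SD, n = 3 each). Without novel_mir6624 the F0 sums were 1933 ± 198 TPM and 1898 ± 517 TPM. In F1 the sums without it were 4219 ± 1701 TPM in Con and 2645 ± 1254 TPM in NHS, and in F2 2939 ± 1284 TPM and 2057 ± 891 TPM (n = 3 each), and in each generation the ranges of Con and NHS overlapped.

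**Figure D3:**
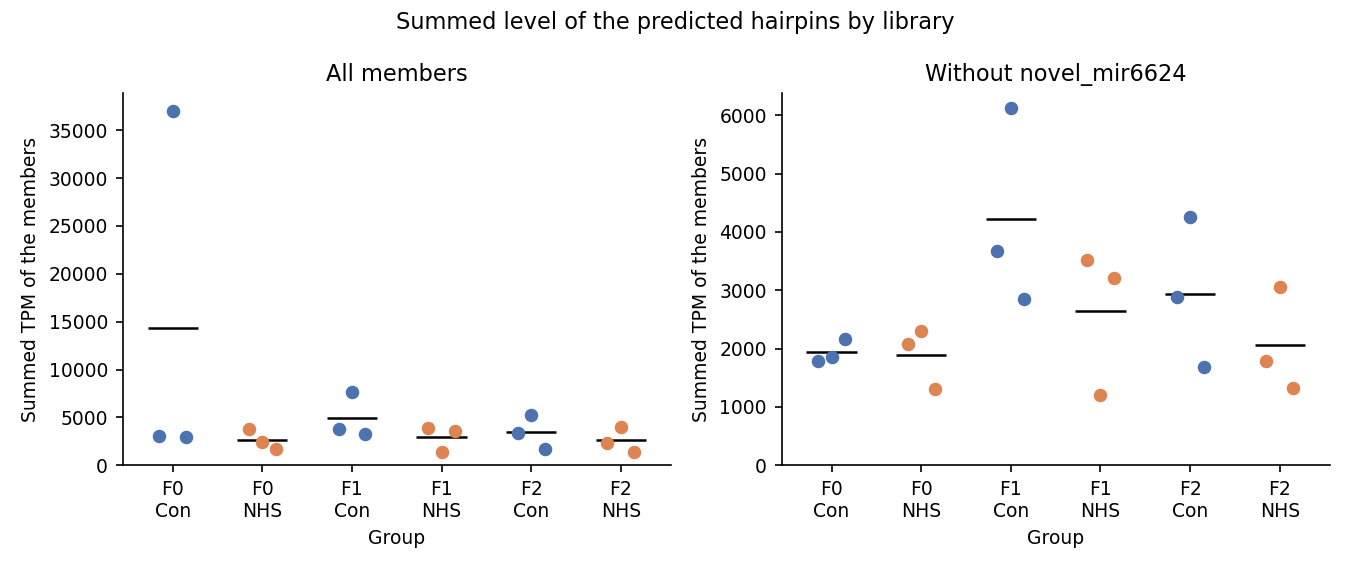
Summed TPM of the members (y) in each library, by group (x), with all members at left and without novel_mir6624 at right. Each point is a library, blue for Con and orange for NHS, and each line is a group mean of 3 libraries. F0 Con replicate 2, at 37,053 TPM, lies far above the rest at left, and the groups overlap within each generation at right.

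A second tRNA-like member lay outside any tRNA gene. novel_mir6371, in an intron of the long noncoding RNA gene Gm31314 at chr5:119525605-119525668 (minus strand), shares a run of 17 bases with the precursors of the tRNA gene loci, and novel_mir7049 has the same mature sequence. It stood at 135, 353 and 290 TPM in F1 Con and at 236, 36 and 481 TPM in F1 NHS. In F0 Con it stood at 65, 24.7 and 29.4 TPM and in F0 NHS at 133, 38.1 and 34.3 TPM. Con and NHS overlapped in F0 and F1, and the highest 4 libraries were all of F1. In all, 7 members (2.37%) shared 12 or more bases in a row with the precursors of the tRNA gene loci, against 0.257% of the other listed loci.

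Ribosomal RNA, the RNA core of the ribosome, gave the next most abundant members. The 3 members in rRNA genes held 23.1% of member reads, or 43.7% with novel_mir6624 set aside. They are novel_mir6543 in n-R5s90, a gene for the small rRNA of the large subunit, and novel_mir5152 and novel_mir3117 in CT010467.1. Their reads were not stacked on one sequence: the most frequent read made up 13.1% of the reads of novel_mir6543, 4.50% of novel_mir5152 and 9.65% of novel_mir3117. Over the members as a whole the median was 37.1%, and 91 members had a single read sequence with 50% or more of their reads.

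novel_mir6543 was the rRNA member that varied most with the group. It begins at base 47 of the 118 bases of n-R5s90 (mature sequence, bases 47 to 71), and its mature sequence is found in GENCODE transcripts of 67 genes, so its reads cannot be assigned to one gene. In F0 it stood at 259, 101 and 139 TPM in Con and at 260, 221 and 78.4 TPM in NHS. In F1 it stood at 1858, 3252 and 1240 TPM in Con and at 88.7, 380 and 548 TPM in NHS, with no overlap. In F2 it stood at 1630.2, 1924 and 240.1 TPM in Con and at 492, 200 and 64 TPM in NHS, where only Con replicate 3 fell within the NHS range. The log2 fold changes were -0.51 (SE 1.03) in F0, -2.18 (SE 1.08) in F1 and -2.51 (SE 1.09) in F2, and none passed the edgeR test (adjusted p = 0.951, 0.505 and 0.331).

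novel_mir5152 showed no such gap. It lies at chr17:39847047-39847100 (minus strand), and 484 different read sequences were assigned to it. Its levels ran from 123 TPM in F1 NHS replicate 2 to 955 TPM in F1 Con replicate 1, and Con and NHS overlapped in every generation. Its adjusted p was 0.951 in F0, 0.706 in F1 and 0.535 in F2 (edgeR).

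The other small RNA genes among the members encode 1 snRNA, a part of the spliceosome, 1 scaRNA, which guides the modification of snRNAs in Cajal bodies, and snoRNAs, which guide the modification of rRNA in the nucleolus. Several of these mature sequences sit at an end of the annotated RNA. novel_mir2631 covers bases 1 to 19 of the snRNA gene Gm22122, novel_mir5550 bases 1 to 21 of the scaRNA gene Gm26083, novel_mir10 bases 1 to 18 of Snord45b and novel_mir6168 bases 1 to 21 of Snora64. novel_mir5947 covers the last 21 bases, 110 to 130, of Snora65. In novel_mir10 the top read sequence held 87.2% of the reads, and in novel_mir6336, in the snoRNA gene Gm26224, 54.8%.

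The snRNA member novel_mir2631 stood at 67.4, 69.4 and 220 TPM in F0 Con and at 79.1, 44.6 and 35.3 TPM in F0 NHS. In F1 it stood at 10.7, 20.6 and 28 TPM in Con and at 37.6, 56.7 and 64.4 TPM in NHS. Con and NHS overlapped in F0 and did not in F1, where the log2 fold change was 1.76 (SE 0.75, edgeR adjusted p = 0.505). In F2 the groups overlapped, at 19.95, 62.75 and 86.49 TPM in Con and 69.08, 50.86 and 36.68 TPM in NHS. The F2 log2 fold change was -0.092 (edgeR adjusted p = 0.962). The mature sequence is found in transcripts of 9 genes, all annotated as snRNA.

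The snoRNA and scaRNA members, 13 in number, had a summed level of 54.5 ± 25.8 TPM in F0 Con and 36.6 ± 16.4 TPM in F0 NHS (SD, n = 3 each). In F1 the sums were 61.6, 40.2 and 28.6 TPM in Con and 35.4, 88.2 and 191 TPM in NHS. Most of the F1 NHS replicate 3 value came from novel_mir6336 at 120 TPM and novel_mir10 at 51.9 TPM. In F2 the sums were 48.6 ± 24.8 TPM in Con and 52.0 ± 21.2 TPM in NHS, within the spread of the libraries.

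A trinucleotide repeat marks novel_mir517, in coding sequence of Gigyf1, and novel_mir4494, between genes on chromosome 1. They have the same mature sequence of 25 bases, which is found in transcripts of 95 genes, so these 2 entries are not independent. novel_mir517 stood at 22.2, 17.2 and 50.6 TPM in F2 Con and at 27.2, 331 and 129 TPM in F2 NHS. novel_mir4494 stood at 17.6, 4.15 and 54.6 TPM in F2 Con and at 12.8, 247 and 174 TPM in F2 NHS. Both were highest in F2 NHS replicate 2, and both groups overlapped. The edgeR adjusted p in F2 was 0.320 for novel_mir517 and 0.331 for novel_mir4494. Mature sequences built of at most 2 kinds of base made up 7.12% of members and 1.90% of all predicted loci.

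Of the other abundant members, novel_mir6794 lies in an intron of the long noncoding RNA gene Gm49793 at chr17:27318581-27318632 (minus strand), with 77.4% of its reads in 1 sequence. It stood at 23.6, 70.8 and 38.9 TPM in F2 Con and at 84.1, 403 and 159 TPM in F2 NHS, with no overlap (log2 fold change 2.02, SE 0.79, edgeR adjusted p = 0.331). Its Con and NHS libraries overlapped in F0 and F1. novel_mir996, in an intron of Zcchc14 at chr8:121605756-121605821 (minus strand), stood between 10.7 and 150 TPM, and its Con and NHS libraries overlapped in F0 and F2. In F1 it stood at 42.8, 38.6 and 150 TPM in Con and at 37.3, 36.5 and 37.3 TPM in NHS, with no overlap (edgeR adjusted p = 0.862).

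The F0 comparison asked how sperm of directly exposed males differed from that of Con males. Of the 295 members 4 were lower in NHS and 0 were higher, beside 1.34% called over the 299 loci tested, which include 4 tRNA gene loci (edgeR, adjusted p under 0.05). At an unadjusted p under 0.05 stood 18 members. DESeq2 called 6 lower and 0 higher (2.01% of the loci tested). The median log2 fold change of all loci tested was 0.22 with TMM scaling and 0.75 with scaling by library totals, so a fold change of a locus is relative to that shift. Above 0 were 174 of the 295 members with TMM, 224 with library totals and 242 with the total of the predicted loci fixed. Without F0 NHS replicate 3 the median over all loci tested was -0.10, with 136 members above 0 and 155 below.

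novel_mir4212 had the smallest p in F0. Its precursor, at chr7:109865617-109865693 (minus strand), lies by at least 50% in a UTR exon of Scube2, the gene of a secreted protein that helps release Hedgehog ligands, while its mature sequence was in none of the GENCODE transcripts. It stood at 35.1, 34.3 and 110 TPM in F0 Con and at 1.91, 2.55 and 0.662 TPM in F0 NHS. All 3 F0 Con libraries lay above every other library of the series, where the level did not exceed 2.55 TPM. It fell by 5.72 on the log2 scale (SE 1.07, edgeR adjusted p = 0.0107). Leaving out F0 NHS replicate 1 or 2 ended this call (adjusted p = 0.115 and 0.0965), and so did scaling by library totals. The reads fell into 10 sequences, of which the most frequent held 40.6%.

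novel_mir6 lies opposite an intron of Jarid2, the gene of a Polycomb complex subunit, at chr13:44749631-44749711 (minus strand). A comparison of its sequence with the large rRNA repeats was not made here, so another source of these reads was not tested. It stood at 117, 724 and 113 TPM in F0 Con and at 15.3, 18.2 and 14 TPM in F0 NHS, with no overlap. It fell by 5.21 on the log2 scale (SE 1.05, edgeR adjusted p = 0.0130), and leaving out F0 Con replicate 2 or F0 NHS replicate 1 or 2 ended the call (adjusted p = 0.0579, 0.139 and 0.0965). F0 Con replicate 2, its highest library, is also the library with the most tRNA gene reads. In F1 it stood at 17, 28.4 and 27.2 TPM in Con and at 135, 26.6 and 142 TPM in NHS, which overlapped. In F2 it stood at 49.9, 77.9 and 33.6 TPM in Con and at 21.6, 21.5 and 29.7 TPM in NHS, which did not overlap (edgeR adjusted p = 0.535).

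novel_mir5550, the scaRNA gene member, stood at 23.8, 1.89 and 33.8 TPM in F0 Con and at 0.324, 0.238 and 0.945 TPM in F0 NHS. The groups did not overlap, though F0 Con replicate 2 lay close to the NHS libraries. It fell by 5.12 on the log2 scale (SE 1.2, edgeR adjusted p = 0.0397). The call was lost without F0 Con replicate 1 or 3 or F0 NHS replicate 1 or 2, with adjusted p from 0.0563 to 0.265. In the other 4 groups its level stayed between 0.0392 and 1.19 TPM.

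novel_mir4375 lies opposite an exon of Kmt5c, the gene of a histone H4 lysine methyltransferase, at chr7:4740244-4740299 (minus strand), with 97.6% of its reads in 1 sequence. It stood at 3.57, 1.18 and 13.1 TPM in F0 Con and at 0, 0.170 and 0 TPM in F0 NHS. It fell by 7.07 on the log2 scale (SE 1.61, edgeR adjusted p = 0.0397), but DESeq2 did not call it (adjusted p = 0.460), and the call was lost without any one of the F0 NHS libraries (adjusted p from 0.0832 to 0.265). Without any one of the F0 Con libraries it no longer passed the filter and was not tested, so the call rests on all 6 F0 libraries. This locus reached 1 TPM in F0 Con alone, so it entered the set through the group in which it was high.

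novel_mir4847, between genes on chromosome 5, had the next smallest p. It stood at 1.14, 3.17 and 2.08 TPM in F0 Con and at 0.793, 0.544 and 0.425 TPM in F0 NHS, with no overlap. The log2 fold change was -2.57 (SE 0.69), with an adjusted p of 0.0853 in edgeR and 0.0197 in DESeq2.

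By annotation, 1 of 17 small RNA gene members fell in F0, 1 of 99 exonic members, 1 of 27 opposite an intron, 1 of 17 opposite an exon, 0 of 56 in introns and 0 of 78 between genes, beside 1.34% of all loci tested, and no difference between these classes was tested. The median log2 fold change was -0.66 over the small RNA gene members, 13 of which were below 0, and 0.22 over all loci tested. In F1 the same members had a median of 0.41, with 11 above 0, beside 0.26 over all loci tested. In F2 their median was -0.32, with 12 below 0, beside 0.0096 over all loci tested. Over the 60 members of 20 to 24 bases with the seed of a known miRNA the F0 median was 0.34, and 0 of them were called in F0. Their F1 median was 0.098, beside 0.26 over all loci tested.

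**Figure D4:**
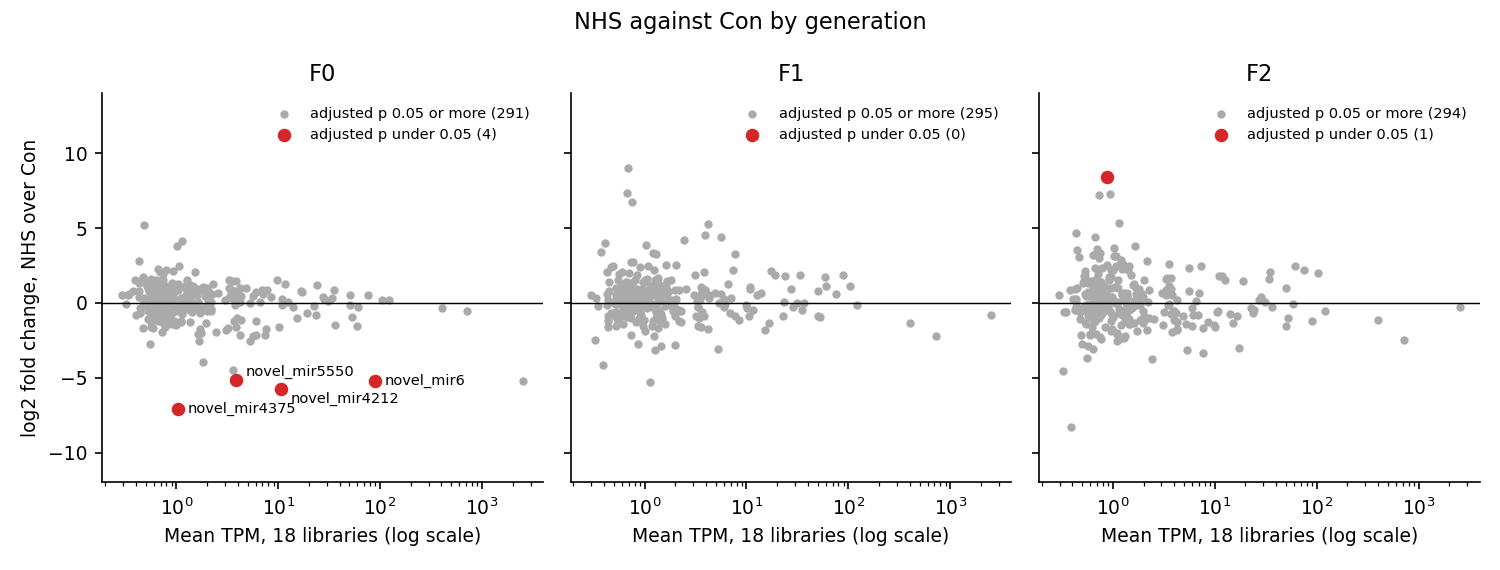
Log2 fold change of NHS over Con (y, edgeR) against mean TPM over 18 libraries (x, log scale) for the 295 members in F0, F1 and F2. Red points passed an adjusted p of 0.05: 4 in F0, all lower in NHS, 0 in F1 and 1 in F2, higher in NHS.

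The F1 comparison asked about untreated sons of exposed males. edgeR called 0 of 295 members (0% of the 299 loci tested). The lowest adjusted p was 0.221, and 26 members had an unadjusted p below 0.05. By DESeq2 there were 3 calls (1% of the loci tested): novel_mir5356 and novel_mir10 higher and novel_mir13 lower in NHS.

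novel_mir5356, in an intron of Synpo, the synaptopodin gene, on chromosome 18, had no reads in any F1 Con library and stood at 1.86, 0.173 and 7.23 TPM in F1 NHS. Against a floor of 3 reads in each F1 Con library its mean was at least 25.5-fold higher (edgeR adjusted p = 0.221, DESeq2 adjusted p = 0.00510). novel_mir10 lies in Snord45b, a snoRNA gene, at chr3:153910564-153910633 (minus strand). It stood at 0.117, 1.27 and 1.84 TPM in F1 Con and at 3.25, 4.56 and 51.9 TPM in F1 NHS, with no overlap. Its log2 fold change was 4.38 (SE 1.39), with an adjusted p of 0.402 in edgeR and 0.0418 in DESeq2.

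novel_mir13 lies in a UTR exon of Tapbp, which encodes tapasin, a helper of peptide loading on MHC class I. It stood at 1.60, 2.80 and 6.83 TPM in F1 Con and at 0.813, 0.414 and 0.371 TPM in F1 NHS, with no overlap. The log2 fold change was -2.79 (SE 0.84), with an adjusted p of 0.344 in edgeR and 0.0145 in DESeq2. Its log2 fold changes in F0 and F2, -1.34 and -1.35, had the same sign and did not pass either test.

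novel_mir16 had the same adjusted p as novel_mir5356 in F1 and lies in coding sequence of Rpl35, a ribosomal protein gene. It stood at 0.0782, 0.212 and 0.157 TPM in Con and at 0.929, 1.59 and 0.519 TPM in NHS (log2 fold change 3.27, SE 0.88, edgeR adjusted p = 0.221). novel_mir6859, in an exon of H2-Q1, stood at 1.45, 8.62 and 1.14 TPM in Con and at 0.406, 0.138 and 0.704 TPM in NHS (edgeR adjusted p = 0.422). Neither pair of groups overlapped.

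The F2 comparison asked about untreated grandsons. edgeR called 1 of 295 members, higher in NHS (0.334% of the 299 loci tested), with 44 at an unadjusted p under 0.05. DESeq2 called 4, 3 of them higher (1.34% of the loci tested).

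Among the F2 members with the smallest p after that, several were at or near 0 in a group. novel_mir242, in an intron of Hic1, which encodes a transcriptional repressor, was at 0 in all F2 Con libraries and stood at 0, 1.69 and 0.961 TPM in F2 NHS (at least 6.53-fold higher against the floor, edgeR adjusted p = 0.150). novel_mir6238, in an intron of Rap1gap2, stood at 0.251, 3.27 and 1.11 TPM in F2 Con and at 0 in all F2 NHS libraries (at least 13.2-fold lower, edgeR adjusted p = 0.178). DESeq2 called both, with adjusted p of 0.00749 and 0.0132, and it called novel_mir5870, whose sum with its overlapping locus is given above. novel_mir3336, in coding sequence of Abhd2, a lipid hydrolase gene, stood at 0.920, 1.16 and 1.07 TPM in F2 Con and at 0, 0.201 and 0.192 TPM in F2 NHS, with no overlap (edgeR adjusted p = 0.320).

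**Figure D5:**
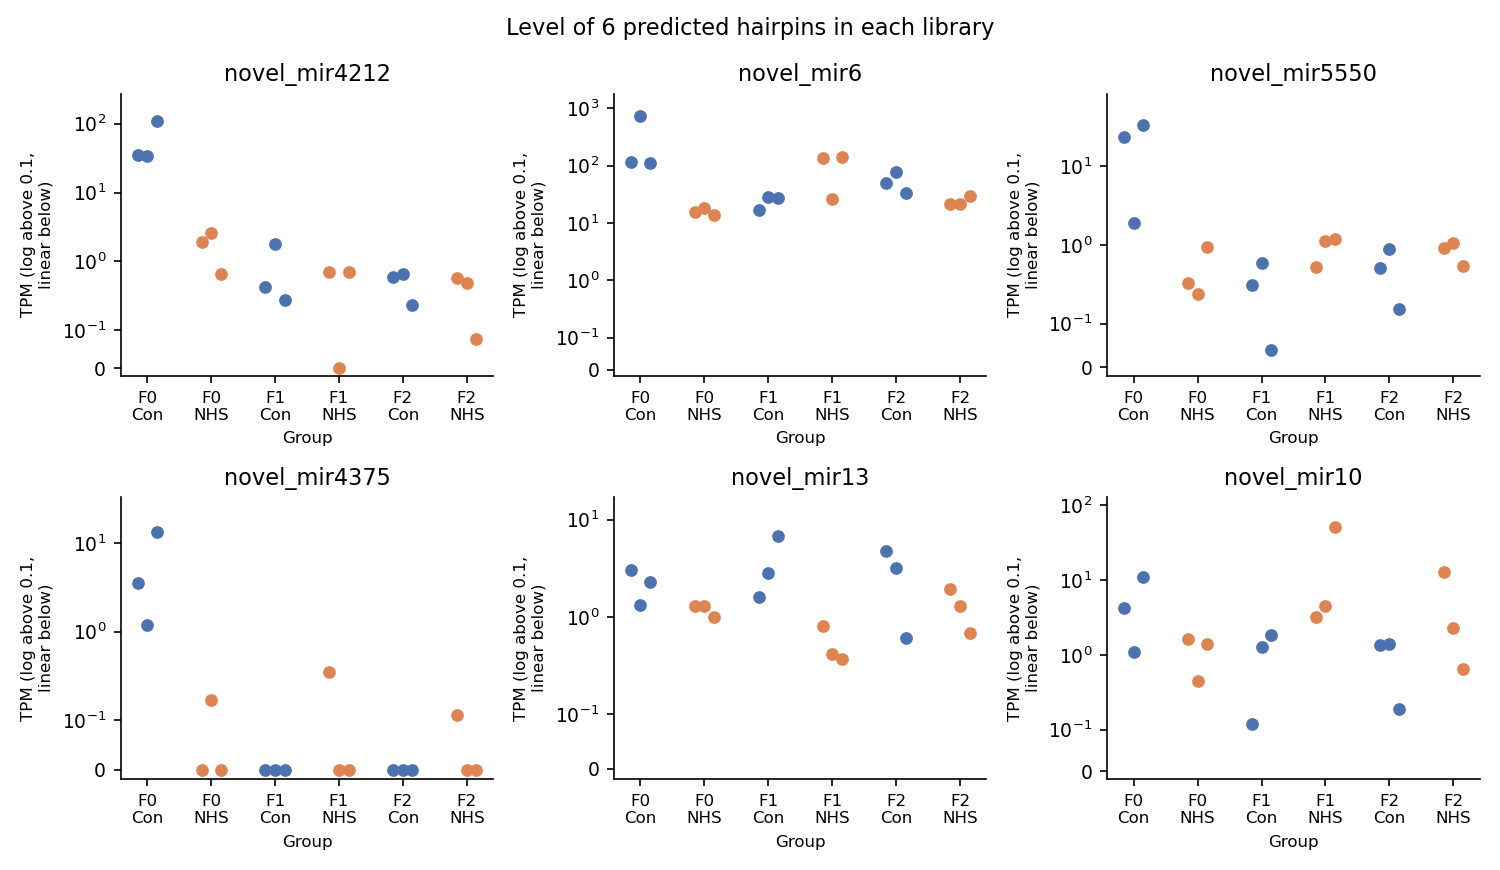
TPM of 6 members (y, logarithmic above 0.1 TPM and linear below) in each library, by group (x), with Con in blue and NHS in orange. novel_mir4212, novel_mir6, novel_mir5550 and novel_mir4375 have their highest group mean in F0 Con, and novel_mir13 is lower and novel_mir10 higher in F1 NHS than in F1 Con.

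Averaged over the 3 generations, 2 of 295 members passed (0.669% of the loci tested, edgeR). 1 of them was lower, novel_mir4212, with a mean log2 fold change of -2.41 (SE 0.54, adjusted p = 0.0440), and 1 was higher (0.334% each). The mean of novel_mir4212 rests mainly on F0: its log2 fold changes were -5.72 in F0, -0.89 in F1 and -0.60 in F2. It lost this call without any one of F0 Con replicate 3, F0 NHS replicate 1 or 2, or F2 NHS replicate 2 or 3. novel_mir13 and novel_mir242 came next, each with an adjusted p of 0.0667, and novel_mir6238 had 0.231. DESeq2 called 7 members in this mean (2.34% of the loci tested), 2 higher (0.669%) and 5 lower (1.67%).

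The test of whether the NHS effect differed from one generation to another passed for 2 members (0.669% of the loci tested, edgeR), among them novel_mir6 with an adjusted p of 0.0359. The log2 fold changes of novel_mir6 were -5.21 in F0, 1.89 in F1 and -1.21 in F2. novel_mir6 lost this call without any one of 10 libraries, with adjusted p up to 0.173: F0 Con replicate 2, all 3 of F0 NHS, all 3 of F1 Con, F1 NHS replicate 3, F2 Con replicate 2 and F2 NHS replicate 2. novel_mir5550 and novel_mir4375 came next, each with an adjusted p of 0.0590. DESeq2 called 9 members (3.01% of the loci tested).

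In the test between the 3 Con groups 7 of 295 members passed (2.34% of the loci tested, edgeR), and 22 in DESeq2 (7.36%). That test asks for any difference among the 3 groups at once, while each NHS test within a generation sets NHS against Con alone. The numbers of calls therefore come from unlike tests, and they were not tested against each other. The Con comparison and the F0 comparison share the F0 Con libraries. Of the 7 members, 6 had their highest mean in F0 Con, among them the 4 members that were lower in F0 NHS. One of these 4, novel_mir4375, reached 1 TPM in F0 Con alone and so entered the set through that group. For novel_mir16, also among the 6, F0 Con and F2 Con were close and F1 Con was low. It stood at 1.6 ± 0.538 TPM in F0 Con, 0.149 ± 0.0675 in F1 Con and 1.48 ± 0.922 in F2 Con (SD, n = 3 each). novel_mir4212 stood at 59.8 ± 43.5 TPM in F0 Con, 0.830 ± 0.831 in F1 Con and 0.493 ± 0.232 in F2 Con (SD, n = 3 each, edgeR adjusted p = 0.000115). In the Con groups novel_mir5550 stood at 19.8 ± 16.3, 0.316 ± 0.278 and 0.513 ± 0.366 TPM (n = 3 each, edgeR adjusted p = 0.00192). novel_mir2876, in an exon of the ribosomal protein gene Rpl7a with a mature sequence that is also in a snoRNA transcript, stood at 14.7 ± 11.2, 3.8 ± 2.69 and 0.678 ± 0.759 TPM (n = 3 each, edgeR adjusted p = 0.0356). novel_mir6 lost this call without F0 Con replicate 2 (adjusted p = 0.178), and novel_mir16 lost it without any one of 9 libraries (adjusted p up to 0.151): F0 Con replicates 2 and 3, F0 NHS replicates 1 and 3, all 3 of F1 Con, F2 Con replicate 2 and F2 NHS replicate 3. novel_mir2876 lost it without F0 Con replicate 2, F1 Con replicate 1 or 2, F1 NHS replicate 3, or F2 Con replicate 2 or 3 (adjusted p from 0.0529 to 0.178). novel_mir4375 was not tested without any one of the F0 Con libraries. novel_mir2876, novel_mir7049, novel_mir2042, novel_mir6336, novel_mir3117, novel_mir3122, novel_mir5947 and novel_mir6168 fall outside the rule for named loci and were picked after their values were seen.

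Known miRNAs that mark cell types also varied between groups, but in F0 the ranges of Con and NHS overlapped for every list. In the 16 libraries with whole lists of known miRNAs, the 4 smooth muscle miRNAs (the 2 arms each of miR-143 and miR-145a) summed to 62,659 to 169,501 TPM in F0 Con, 47,153 to 119,136 in F0 NHS, 5927 to 13,214 in F1 Con, 31,506 in the single F1 NHS library, 12,105 to 29,705 in F2 Con and 21,107 to 34,554 in F2 NHS. The 5 germ cell miRNAs (miR-34b and miR-34c arms and miR-449a-5p) summed to 3983 to 7771 TPM in F0 Con, 6633 to 18,065 in F0 NHS, 12,732 to 20,354 in F1 Con, 9349 in the single F1 NHS library, 18,567 to 21,777 in F2 Con and 8675 to 12,430 in F2 NHS. The red blood cell list (4 miRNAs) summed to 10,024 to 77,150 TPM in F0 Con, 19,923 to 35,488 in F0 NHS, 15,514 to 34,099 in F1 Con, 59,012 in the F1 NHS library, 4311 to 11,515 in F2 Con and 8997 to 24,194 in F2 NHS. The epithelial list (6 miRNAs) summed to 20,287 to 28,752 TPM in F0 Con, 11,990.0 to 25,663 in F0 NHS, 4618 to 19,877 in F1 Con, 13,611 in the F1 NHS library, 6048 to 9153 in F2 Con and 14,942 to 20,837 in F2 NHS. The ranges of F2 Con and F2 NHS did not overlap for the germ cell list, which was lower in NHS, and the epithelial list, which was higher. For the other lists they overlapped in F2. Leukocyte miRNAs (5) stayed between 195 and 2323 TPM and the liver miRNA between 0.84 and 158 TPM over all groups. At 0 in every library of a group stood 1 smooth muscle miRNA, in F2 Con, and no miRNA of the other lists. The part of these cells in the results was not tested, and fewer cells of a type and less RNA per cell cannot be told apart in these libraries.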

How the data were processed

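Small RNA was sequenced from mouse sperm in 18 libraries, 3 in each of 6 groups. The deposited lists give, for each small RNA, a read count and a TPM value, and a further deposited table gives the position, precursor and read sequences of each predicted locus. The count values are the authors' raw reads per small RNA, per the file headers. The TPM values are the authors' counts per 1,000,000 reads of the library: recomputing them from the deposited counts matched 100% of entries within 0.011, with no length term. The build is mm10, per the submitters' processing notes. For the aligner, the counter and the miRNA predictor, names were not given in the sources used here. Some lists stop early, and for those the total came from dividing counts by TPM. In those libraries the match shows that no length term was used but is no separate check of the total. The predicted loci are listed whole in all 18 libraries, and 0 columns of other samples were left unused.

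Counts were tested with edgeR 4.0.16 (quasi-likelihood F test, TMM scaling, two-sided) in R 4.3.3, as means of 6 groups over all 18 libraries. The filter was 1 CPM in 3 libraries, and p-values were adjusted by Benjamini-Hochberg over the 299 loci left, with a threshold of 0.05. DESeq2 1.42.0, other scalings and filters, a replicate block and leaving out each library were the alternatives. Hairpins were folded with RNAfold 2.7.2, annotated with GENCODE M21 (GRCm38) and RefSeq, and known miRNA sequences came from RefSeq. Positions count from 1 here. Library totals of 17,224,478 to 29,430,555 reads limit the precision of low loci, and floors of 3 reads cover counting error only.

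Members and lists were chosen with earlier results of these data known. Named loci were those called in F0, F1, F2 or their mean, the 5 with the smallest p in each of these, the 10 with the highest mean TPM, the 3 with the smallest p for the difference between generations and between Con groups, up to 6 of 20 to 24 bases with the seed of a known miRNA, and 2 on each side of the threshold. Sequences of loci on chromosome 18 are not shown. The results of 1 called locus are not reported here.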

Additional observations from a re-analysis of the deposited data

Results flagged for a closer look

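The NHS effect on novel_mir6 differed between generations (edgeR adjusted p = 0.0359), with log2 fold changes of -5.21 in F0, 1.89 in F1 and -1.21 in F2. DESeq2 called it too, but scaling by library totals or the replicate block ended the call. So did leaving out any one of several libraries, listed above, among them F0 Con replicate 2.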

How the results depend on the processing

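Counts of called members moved with the settings, while no called fold change changed sign. The median log2 fold change over all loci tested did: leaving out 1 library moved it from 0.22 to as low as -0.10 in F0, and from 0.26 to as low as -0.21 in F1. In F0 (4 called) 2 were called with library totals, 0 with the total of the predicted loci fixed, 2 with a filter of 5 CPM and 2 with the F0 libraries alone. In F1 (0 called) the fixed total gave 1, DESeq2 3 and no filter 6. In F2 (1 called) the fixed total gave 3, DESeq2 4, no filter 3, the filter of 5 CPM 0 and the F2 libraries alone 0. For the mean over generations (2 called) library totals gave 0, DESeq2 7, the filter of 5 CPM 1 and a term for the 2 sets of libraries by tRNA gene reads 4. For the difference between generations (2 called) library totals gave 0, DESeq2 9, no filter 12, the filter of 5 CPM 1 and the set term 7. Between the Con groups (7 called) DESeq2 gave 22, no filter 16 and the Con libraries alone 12. Alternatives chosen after seeing the data were the 12 libraries low in tRNA gene reads, with 25 called in F2, 25 in the mean, 17 in the difference and 48 between Con groups, where F2 Con is 1 library that is assumed to vary like the others, and leaving out the tRNA gene loci and novel_mir6624, with 4 in the difference. The cause was not tested.

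The replicate block, which treats libraries of the same number as matched, gave 1 call in F0, 0 in the mean, 0 in the difference and 3 between Con groups. The sources used here do not say whether equal numbers mark matched libraries, and correlations within groups of 3 cannot settle it. Same-numbered libraries correlated from -0.541 to 0.503 in their deviations from group means, and 3 of 18 libraries correlated best with their own number.

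Leaving out each library in turn gave 0 to 4 calls in F0, 0 to 0 in F1, 1 to 3 in F2, 0 to 5 in the mean, 0 to 5 in the difference and 3 to 11 between Con groups. F0 fell to 0 without F0 NHS replicate 1 or 2 and to 2 without any one of the F0 Con libraries. Over all alternative settings together, not only the fits without 1 library, 593 single-locus values kept their side of the threshold. Another 42 passed it and 64 lost it. Fits in which a locus was not tested are not counted. The 295 members would be 70 at 5 TPM in 3 libraries and 33 at 1 TPM in all 18. At the median of 1.09 TPM a member rests on few reads per library, which limits the precision.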

Other observations

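Of 16 members with the mature sequence inside an annotated small RNA gene, 7 had it start at the first base or end at the last base of that gene, 4 had it within 5 bases of an end or past it, and 5 had it further inside. Besides the members named above, novel_mir1586 starts at base 1 of Gm24888 and lies at bases 32 to 53 of Gm47284, which overlaps it, and novel_mir1803 covers bases 169 to 191 of the 191 bases of Gm25419. novel_mir2102 starts at base 2 of Mir3096. Among those further inside, novel_mir3280 covers bases 63 to 85 of the 131 bases of Gm22154 and novel_mir6336 bases 8 to 31 of the 80 bases of Gm26224. These loci were picked after their values were seen, and the positions were not tested.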
